A study of Homo sapiens with 6 samples.

Results

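The 31 genes described here form a list of targets of the transcription factor NRF2, with NRF2 itself (gene symbol NFE2L2) and its partner MAFG. They were taken by gene symbol from the deposited table, a step that used no measured values. The list itself was chosen with earlier results of these data known. All 31 had a row among the 13696 distinct gene identifiers, and all 31 were among the 13616 genes tested, which had a mean of at least 1 CPM (reads scaled to a common library total). The lowest estimated count of a member in any library was 62 reads. The cells were hTERT RPE-1, a line of human retinal pigment epithelial cells immortalised with the telomerase gene hTERT. The 3 untreated libraries came from cells given no drug, and the 3 pre-dose libraries from cells given 25 nM camptothecin, an inhibitor of topoisomerase 1, for 1 h and then left for 24 h without it. The labels name no other agent or genetic change in either group. All 6 titles carry the word Top1, which the labels do not explain. The comparison bears on how cells adapt to a low dose of a topoisomerase 1 inhibitor, which the series title links to cullin 3.

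NRF2 controls the genes that protect cells from oxidants and reactive chemicals. In resting cells the adaptor KEAP1 holds NRF2 on a ubiquitin ligase built on cullin 3 (CUL3), which needs the attached modifier NEDD8 to be active, and NRF2 is degraded. When oxidants or electrophiles modify KEAP1, NRF2 escapes, pairs with a small MAF protein such as MAFG and binds antioxidant response elements near its targets. These targets make glutathione, supply NADPH, reduce thiols, detoxify quinones and aldehydes, and handle heme and iron. The RNA of NRF2 itself says little about this switch, which acts mainly on the protein, so the RNA of the targets is the usual readout.

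Promoters of 24 of the 31 members were found in RefSeq (GRCh38.p14), each 250 bases before to 50 bases after a start, 33 promoters in all. They were searched on both strands for TGACNNNGC, the core of the antioxidant response element. The core was in 8 of the 33 promoters (24.2%), in 13.3% of the 35116 promoters of the same length in that table, and in 14.4% of the 14605 that belong to genes of the deposited table. The matches are shown because this is the element through which NRF2 reaches a target. Each stretch is written 5′ to 3′ on the strand that reads TGAC, with the core in capitals and 10 bases on either side.
GCLM, chr1:93909446-93909474, plus strand: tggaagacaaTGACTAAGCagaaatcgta
TXNRD1, chr12:104286920-104286948, minus strand: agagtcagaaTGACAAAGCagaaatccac
TXNRD1, chr12:104215670-104215698, plus strand: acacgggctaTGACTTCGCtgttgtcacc
TXNRD1, chr12:104215761-104215789, minus strand: ctgtgggaacTGACGGAGCcgaaggacgc
ME1, chr6:83431170-83431198, minus strand: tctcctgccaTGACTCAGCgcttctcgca
ME1, chr6:83431022-83431050, plus strand: gctgctggggTGACGGTGCtgactgcagc
PIR, chrX:15493289-15493317, plus strand: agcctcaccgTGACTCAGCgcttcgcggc
PGD, chr1:10398853-10398881, minus strand: agcacctagaTGACATTGCcccggcgagg
CBR1, chr21:36069855-36069883, minus strand: ccagctagccTGACTTTGCagaacccgca
EPHX1, chr1:225825266-225825294, plus strand: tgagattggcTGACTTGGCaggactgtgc

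Of the 3 TXNRD1 matches, 2 lay in the same promoter and the third in that of another start. In 2 of the 10 stretches, in ME1 and PIR, the core overlapped TGANTCA, the AP-1 site. TGANTCA was in 9.09% of the members' promoters, in 7.71% of all promoters in the table and in 5.26% of those of genes in the deposited table. A match is a description of the letters, and a promoter without one says only that the core was not in this window. The treatment differences of the 7 genes with a match ran from -0.16 (PIR) to 0.039 (TXNRD1) with a median of -0.015. Those of the 17 genes whose promoters had no match ran from -0.12 (FTL) to 0.13 (AKR1C2) with a median of -0.029. These are differences of log2(CPM + 1), pre-dose minus untreated, the scale used for every difference here.

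The libraries as a whole held 26336942 to 31780392 estimated reads. Of 11 retinal pigment epithelium markers, 3 had a row (BEST1, MITF and OTX2), with a summed level of 65.4 to 69.3 CPM in untreated and 66.9 to 73.5 CPM in pre-dose libraries. RPE65, RLBP1, LRAT, TTR, TYR, TYRP1, DCT and PMEL had no row in the deposited table. The simple epithelial keratins KRT8 and KRT18 summed to 1305 to 1440 CPM and 1296 to 1334 CPM. The other 2 of these 4 epithelial markers, CDH1 and EPCAM, had no row, nor did any of 3 keratinocyte markers. Of 3 blood cell markers 1 had a row, CD68, a lysosomal protein that many cell types express, and its groups did not overlap, with 58.2 to 65.4 CPM in untreated and 70.7 to 75.9 CPM in pre-dose libraries. The defining blood cell markers PTPRC and CD3E had no row. Of 3 neuronal markers 1 had a row, SNAP25, at 0.967 to 1.42 CPM and 1.42 to 1.61 CPM. The part of these genes in the results below was not tested. CDKN1A, the p53 target p21, differed by 0.42, 1.32 and 1.02 in the replicate 1, 2 and 3 pairs, the smallest being that of replicate 1. Its mean difference was 0.92 (interval 0.11 to 1.73), and that of MDM2, also taken for context, was 0.50 (0.089 to 0.91). The groups overlapped for both genes, and neither passed in limma over all 3 replicates. Both passed as higher in replicates 2 and 3 alone (limma adjusted p = 2.27e-05 and 4.09e-04). A gene that did not pass over all 3 replicates was thus not shown to be unchanged. Both libraries numbered replicate 1 differed from the rest over many genes, with 5560 of 13616 (40.8%) offset in limma with the treatment in the model.

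The mean levels of the NRF2 targets differed little between pre-dose and untreated cells. In limma, 0 of the 31 members passed an adjusted p of 0.05, against a background of 0.0% of all genes tested, and 0 had an unadjusted p under 0.05, against 2.06%. The differences ran from -0.16 (PIR) to 0.25 (AKR1B10), and their median was -0.015, against -0.0013 for all genes tested. The median size of a difference, whatever its sign, was 0.040 for the members and 0.057 for all genes. Of the members, 13 were higher on average after the pre-dose and 18 lower. The pairs did not share a direction. The median over members was -0.032 in the replicate 1 pair, -0.028 in the replicate 2 pair and 0.010 in the replicate 3 pair, with 8, 12 and 17 members higher. In all 3 pairs 4 members were higher, where 15.6% of all genes were, and 9 were lower, where 16.3% were. In replicates 2 and 3 alone the differences ran from -0.22 (TRIM16L) to 0.28 (AKR1B10), with a median of -0.0087 for the members and 4.71e-04 for all genes tested. There 15 members were higher and 16 lower, and 2, TALDO1 (0.0032) and CBR1 (5.99e-05), had the other sign than over all 3 replicates. An unadjusted p under 0.05 was reached there by 5 members (NQO1, UGDH, SQSTM1, FTL and TRIM16L) and by 21.0% of all genes. In bulk RNA, a lower level from fewer expressing cells and from less RNA per cell cannot be told apart.

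The intervals give the mean differences that the spread between these libraries allows. That spread may be technical, and each mean includes the replicate 1 pair, so the intervals do not bound a response of the cells. For 30 of the 31 members the 95% interval of the difference lay between -0.5 and 0.5, a range that held the interval of 86.3% of all genes. The exception was AKR1B10, the member with the lowest counts. The interval lay between -0.25 and 0.25 for 14 members, against 32.6% of all genes. With the replicate number as a block, it lay between -0.25 and 0.25 for 26 members, against 61.3% of all genes. No member passed an adjusted p with the block either, and the background was again 0.0%. In that fit 2 members (FTL and PIR) had an unadjusted p under 0.05, with 10.6% of all genes. With voom and library quality weights, 0 members passed and 0.793% of all genes did.

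**Figure D1:**
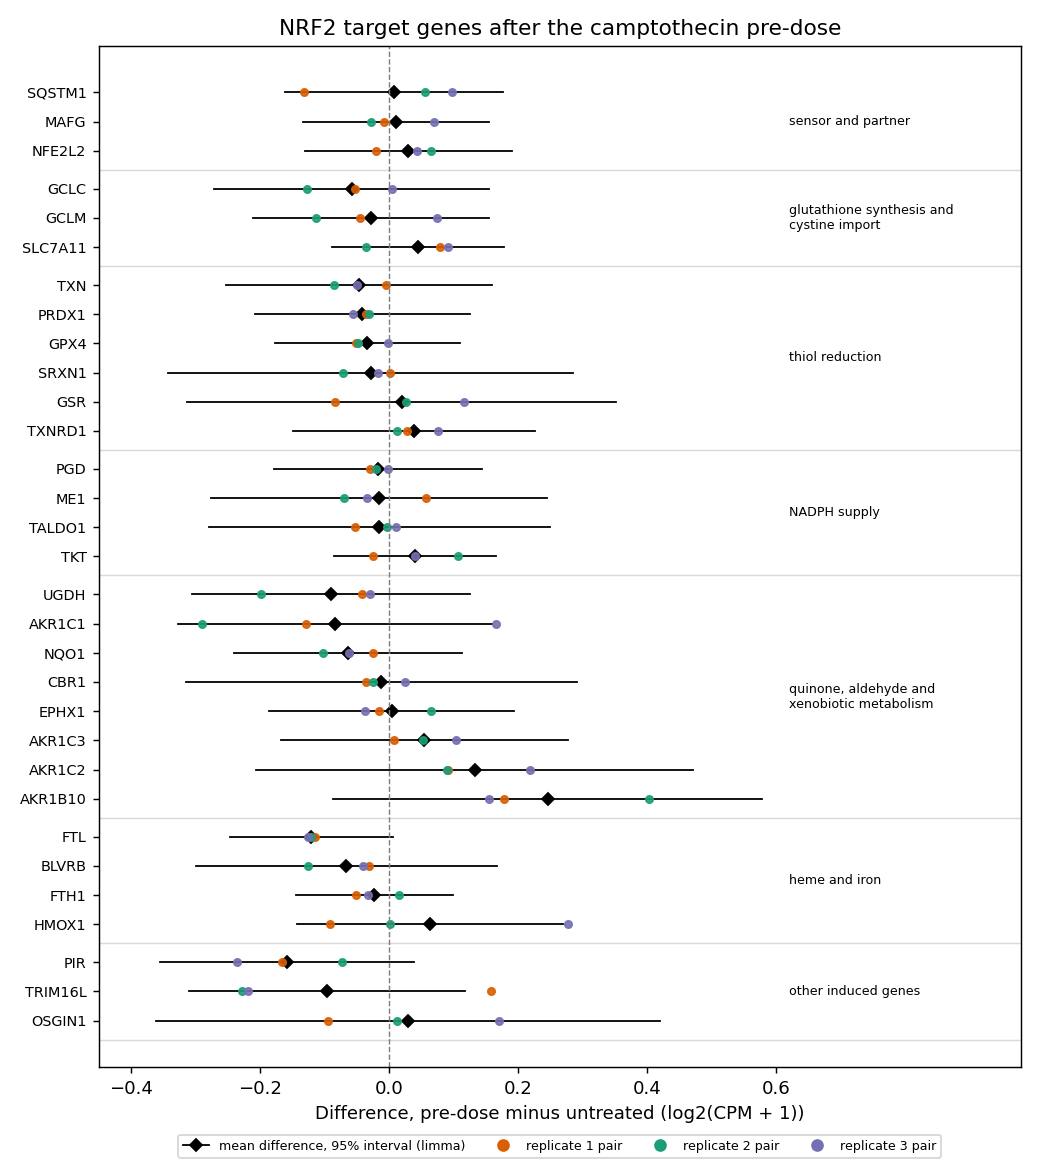
Difference between pre-dose and untreated libraries for each of the 31 members, grouped by role, on the log2(CPM + 1) scale (x axis). Diamonds and bars are the limma mean difference and 95% interval, and coloured points are the 3 replicate pairs. Every bar crosses 0, and the points of FTL lie together at -0.11 to -0.13.

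NFE2L2, on chromosome 2 from 177227595 to 177392697 (GRCh38, GENCODE 29), encodes NRF2. It had 73.9, 78.1 and 79.4 CPM in untreated replicates 1, 2 and 3, and 72.9, 81.8 and 81.9 CPM in the pre-dose libraries. The groups overlapped, and in both of them the replicate 1 library was the lowest. The difference was 0.030, with an interval of -0.13 to 0.19 (limma adjusted p = 1.00). MAFG, the small MAF partner, had 61.1 to 66.6 CPM over the untreated and 61.8 to 66.3 CPM over the pre-dose libraries, and differed by 0.011 (-0.13 to 0.16). SQSTM1, the autophagy receptor p62, which binds KEAP1 and is itself an NRF2 target, differed by 0.0070 (-0.16 to 0.18). Its pairs were at -0.13, 0.055 and 0.098.

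The groups overlapped for all 3 genes of glutathione synthesis. SLC7A11, the cystine transporter that supplies the limiting amino acid, lies on chromosome 4 from 138164097 to 138242349. It had 82.0, 82.0 and 80.6 CPM in untreated libraries and 86.6, 80.0 and 85.9 CPM in pre-dose libraries. The untreated libraries were close together and the pre-dose replicate 2 library lay just below them, so the groups overlapped. The difference was 0.045 (-0.089 to 0.18, limma adjusted p = 1.00). SLC7A11 is also a target of ATF4 and is repressed by p53, so it is not a readout of NRF2 alone.

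GCLC and GCLM encode the catalytic and modifier subunits of glutamate-cysteine ligase, the rate-limiting enzyme of the pathway. GCLC had 17.9, 21.5 and 19.1 CPM in untreated and 17.3, 19.6 and 19.1 CPM in pre-dose libraries, a difference of -0.058 (-0.27 to 0.16). GCLM, whose promoter holds the core shown above, had 30.3, 28.1 and 28.2 CPM in untreated and 29.3, 25.9 and 29.7 CPM in pre-dose libraries, a difference of -0.028 (-0.21 to 0.15). Both genes overlapped between groups, and neither passed (limma adjusted p = 1.00).

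Among the enzymes that reduce thiols and peroxides, TXNRD1, the cytosolic thioredoxin reductase, is on chromosome 12 from 104215779 to 104350305. It had 1126, 998 and 975 CPM in untreated and 1148, 1006 and 1028 CPM in pre-dose libraries. It was higher in each pair, by 0.028, 0.012 and 0.076, steps smaller than the gap between replicate 1 and the others in either group. The difference was 0.039 (-0.15 to 0.23, limma adjusted p = 1.00). SRXN1, sulfiredoxin, which repairs overoxidised peroxiredoxins, had 79.0, 62.0 and 63.6 CPM in untreated and 79.0, 58.9 and 62.9 CPM in pre-dose libraries. It differed by -0.029 (-0.34 to 0.29), and in both groups the replicate 1 library was the highest. Of the 150-base stretches of SRXN1 transcripts (150 bases being the read length), 84.2% also occurred in transcripts of another annotated gene, AL121758.1 (GENCODE 29), so the level of SRXN1 is uncertain. The other 4 genes of this role, TXN (thioredoxin), PRDX1 (a peroxiredoxin), GPX4 (the lipid peroxide reductase) and GSR (glutathione reductase), differed by -0.047, -0.041, -0.034 and 0.020.

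Of the 4 genes grouped under NADPH supply, PGD and TALDO1 differed by -0.017 and -0.015, and TKT and ME1 by 0.040 and -0.015. PGD, TALDO1 and TKT belong to the pentose phosphate pathway, and ME1 is the cytosolic malic enzyme. Their widest interval was that of TALDO1, -0.28 to 0.25. The groups overlapped for all 4.

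NQO1, a quinone reductase often used to report NRF2 activity, lies on chromosome 16 from 69706996 to 69726951. It had 460.3, 419 and 418 CPM in untreated and 452, 389.8 and 400.3 CPM in pre-dose libraries. It was lower in each pair, by -0.025, -0.10 and -0.063. The pre-dose replicate 1 library nonetheless lay above untreated replicates 2 and 3, so the groups overlapped. The difference was -0.064 (-0.24 to 0.11, limma adjusted p = 1.00). UGDH, which makes the UDP-glucuronate used to conjugate drugs, was also lower in each pair, by -0.042, -0.20 and -0.030. It had 148, 135 and 127 CPM in untreated and 144, 117 and 125 CPM in pre-dose libraries, a difference of -0.091 (-0.31 to 0.12).

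The aldo-keto reductases AKR1B10, AKR1C1, AKR1C2 and AKR1C3 reduce aldehydes, ketones and steroids. AKR1B10 had 2.12, 2.53 and 2.13 CPM in untreated and 2.53, 3.66 and 2.48 CPM in pre-dose libraries. It was higher in each pair, by 0.18, 0.40 and 0.16, and pre-dose replicate 2 was the highest library, but the pre-dose replicate 3 library was below untreated replicate 2. The difference was 0.25 (-0.087 to 0.58, limma adjusted p = 1.00). It was 0.11 without pre-dose replicate 2 and 0.34 on the deposited log2 values. AKR1C2 had 6.31, 8.58 and 7.57 CPM in untreated and 6.79, 9.19 and 8.97 CPM in pre-dose libraries, a difference of 0.13 (-0.21 to 0.47), higher in each pair. It was 0.030 without untreated replicate 1 and 0.26 without pre-dose replicate 1.

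AKR1C1 had 14.5, 14.1 and 12.1 CPM in untreated and 13.2, 11.3 and 13.7 CPM in pre-dose libraries, a difference of -0.085 (-0.33 to 0.16) with pairs of both signs. AKR1C1 and AKR1C2 are near-identical neighbours on chromosome 10. Of the stretches of 150 bases, the read length, in AKR1C1 transcripts (GENCODE 29), 10.6% also occurred in AKR1C2, and 17.0% of those of AKR1C2 occurred in AKR1C1. How reads from these stretches were assigned is not given in the sources used here, so the levels of AKR1C1 and AKR1C2 are uncertain. AKR1C3 differed by 0.054 (-0.17 to 0.28), CBR1, a carbonyl reductase, by -0.012, and EPHX1, the microsomal epoxide hydrolase, by 0.0037.

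HMOX1, heme oxygenase 1, breaks down heme and is strongly induced by many stresses. It lies on chromosome 22 from 35380361 to 35394214. It had 18.9, 17.6 and 15.8 CPM in untreated and 17.7, 17.6 and 19.3 CPM in pre-dose libraries. The pairs differed by -0.091, 0.0021 and 0.28, so the replicate 3 pair alone set the sign of the mean, 0.063 (-0.14 to 0.27, limma adjusted p = 1.00). In the authors' deposited table, whose changes are not plain mean differences, HMOX1 had a log2 change of 0.20 with an adjusted p of 0.119. BLVRB, another member with a heme and iron role, differed by -0.066 (-0.30 to 0.17).

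FTL, the light chain of the iron store ferritin, was lower by nearly the same amount in all 3 pairs. It lies on chromosome 19 from 48965301 to 48966878. FTL had 1618, 1550 and 1542 CPM in untreated libraries and 1494, 1425 and 1413 CPM in pre-dose libraries. The groups did not overlap, and the pairs differed by -0.11, -0.12 and -0.13. The means were 1570.0 ± 41.8 CPM (SD, n = 3) and 1444 ± 44.0 CPM (SD, n = 3). The difference was -0.12 (-0.25 to 0.0066), which did not pass in limma (adjusted p = 1.00).

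In the authors' deposited table FTL had a log2 change of -0.13 with an adjusted p of 0.0475, the 1 member of 31 past 0.05, where 3.05% of all genes were past it. In replicates 2 and 3 alone FTL passed as lower in limma (-0.12, adjusted p = 0.0453), and over 15 alternative settings its adjusted p ran from 0.0331 to 1.00. FTH1, the heavy chain that pairs with FTL in the same shell, had 2543, 2438 and 2480 CPM in untreated and 2454, 2464 and 2425 CPM in pre-dose libraries. Its groups overlapped and its difference was -0.023 (-0.14 to 0.098). Whether FTL and FTH1 differed from each other was not tested.

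PIR, pirin, an iron-binding nuclear protein, lies on the X chromosome from 15384799 to 15493564. It had 17.2, 16.1 and 15.7 CPM in untreated and 15.2, 15.3 and 13.2 CPM in pre-dose libraries. These groups did not overlap either, with pairs of -0.17, -0.074 and -0.24. The difference was -0.16 (-0.36 to 0.039, limma adjusted p = 1.00), and the authors' deposited table gave an adjusted p of 0.0907. FTL and PIR were the only 2 of 31 members without overlap, both lower. Among all genes tested, 3.19% did not overlap and were lower, and 6.55% did not overlap in either direction.

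TRIM16L, on chromosome 17 from 18697998 to 18736118, is a relative of the ubiquitin ligase gene TRIM16. It had 48.6, 59.2 and 59.6 CPM in untreated and 54.3, 50.4 and 51.0 CPM in pre-dose libraries. The replicate 1 pair was higher after the pre-dose, by 0.16, and the replicate 2 and 3 pairs lower, by -0.23 and -0.22. Over all 3 pairs the difference was -0.096 (-0.31 to 0.12, limma adjusted p = 1.00). In replicates 2 and 3 alone it was -0.22 and passed in limma (adjusted p = 0.0127, range 0.00601 to 1.00 over 15 alternative settings). TRIM16L and FTL were the 2 of 31 members past the threshold in replicates 2 and 3, where 6.36% of all genes passed and 3.47% passed as lower. With the replicate block added there, these 2 passed again, with 9.01% of all genes. The replicate 1 pair of TRIM16L differed from the mean of the other pairs by 0.38 (interval 0.22 to 0.55, limma adjusted p = 0.0438), in a contrast added after the values were seen. TRIM16L was the 1 member of 31 past the threshold in that contrast, where 1.11% of all genes passed, and 2 members had an unadjusted p under 0.05, where 12.3% of all genes did. The authors' deposited table gave TRIM16L an adjusted p of 0.0501. Of the 150-base stretches of TRIM16L transcripts, 13.0% also occurred in TRIM16, so reads of the pair may not be told apart there. OSGIN1, an oxidative stress-induced growth inhibitor, differed by 0.029 (-0.36 to 0.42).

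**Figure D2:**
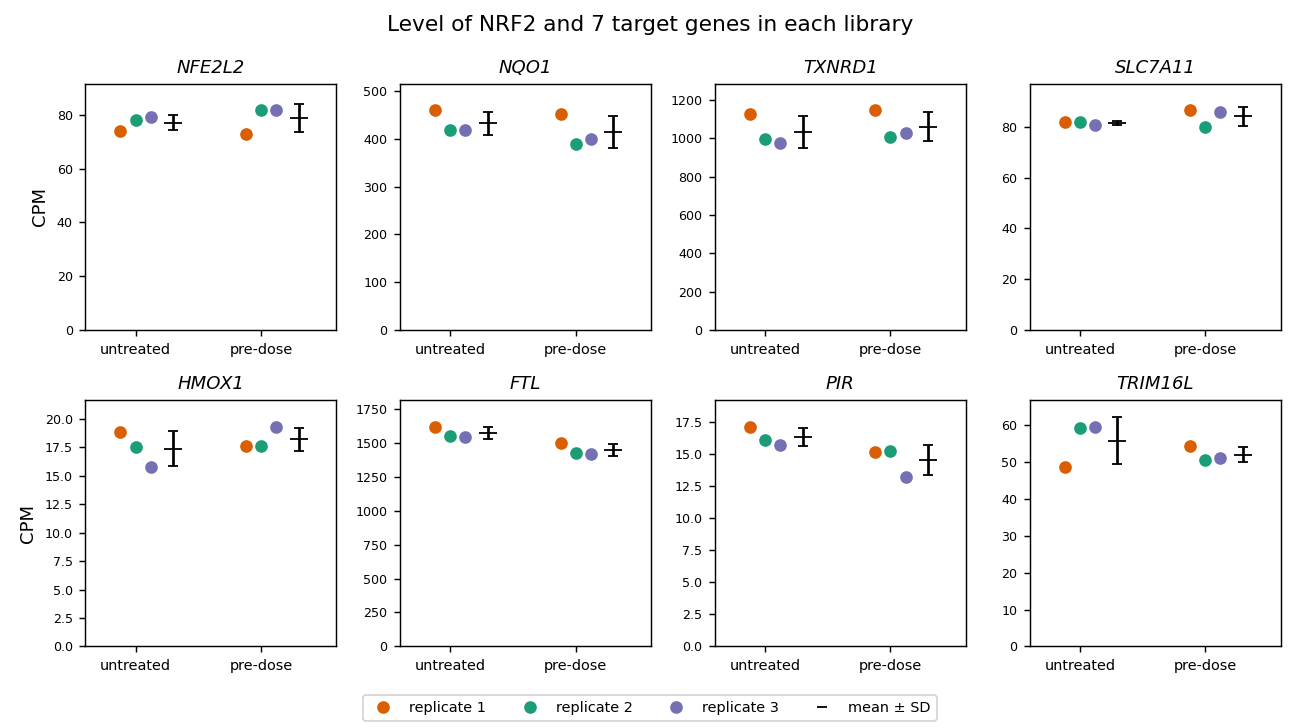
Level of NFE2L2 and 7 targets in CPM (y axes, from 0) in each untreated and pre-dose library. Coloured points are libraries by replicate number, and the black mark is the mean with its SD (n = 3). FTL and PIR are the panels in which the groups do not overlap, and in NQO1 and TXNRD1 replicate 1 is the highest library of both groups.

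The members spanned a wide range of levels. Per kilobase of the union of exons, FTL had 1716 and FTH1 1215 CPM per kb, averaged over the 6 libraries, and no other member was above 157. TKT, TXNRD1 and PRDX1 followed at 157, 156 and 152, with library ranges of 149.8 to 161, 145 to 171 and 144 to 165 that overlapped. GPX4, NQO1 and TXN were at 133, 130.1 and 129.6. NFE2L2 was at 13.1 and the lowest were AKR1C1, AKR1B10 and AKR1C2 at 1.50, 1.48 and 1.22. These lengths are those of GENCODE 29 and may not be the ones expressed. The 31 genes together took 0.959 to 1.02% of all CPM.

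The members stood further apart between replicate 1 and the other replicates than between the groups. The median size of the replicate 1 offset was 0.15 for the members and 0.15 for all genes, against treatment differences of 0.040 and 0.057. In limma, with the treatment in the model, 18 of 31 members (58.1%) were offset at an adjusted p of 0.05, against 40.8% of all genes. They were 14 higher in replicate 1, where 20.3% of all genes were, and 4 lower, where 20.6% were. The offset was larger in size than the treatment difference for 24 members (77.4%) and for 76.8% of all genes. The labels give no batch or date, so what set replicate 1 apart was not tested.

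All 6 thiol reduction genes were higher in replicate 1, SRXN1 by 0.35 (interval 0.25 to 0.44, limma adjusted p = 2.44e-04), GSR by 0.37 (0.26 to 0.47) and GPX4 by 0.099 (0.020 to 0.18). Other genes of this kind did not share that direction. Of the 32 glutathione and thioredoxin genes listed below, 4 passed as higher in replicate 1 and 8 as lower, with 20.3% and 20.6% of all genes. CBR1 was higher by 0.34 (0.26 to 0.42), OSGIN1 by 0.41 (0.22 to 0.60), TALDO1 by 0.29 and NQO1 by 0.17 (0.095 to 0.24). The 4 lower members were AKR1C2 (-0.34), ME1 (-0.27), AKR1C3 (-0.22) and NFE2L2 (-0.13, interval -0.21 to -0.041). SLC7A11 (0.038), HMOX1 (0.057), GCLM (0.092) and FTH1 (0.027) did not pass. KEAP1, the inhibitor, was higher in replicate 1 by 0.32 (limma adjusted p = 0.00256), and BACH1, a repressor of HMOX1 and other NRF2 targets, was lower by -0.25 (limma adjusted p = 0.00872). They were among 5 higher and 3 lower of the 22 regulators of NRF2 listed below, where 40.8% of all genes were offset.

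**Figure D3:**
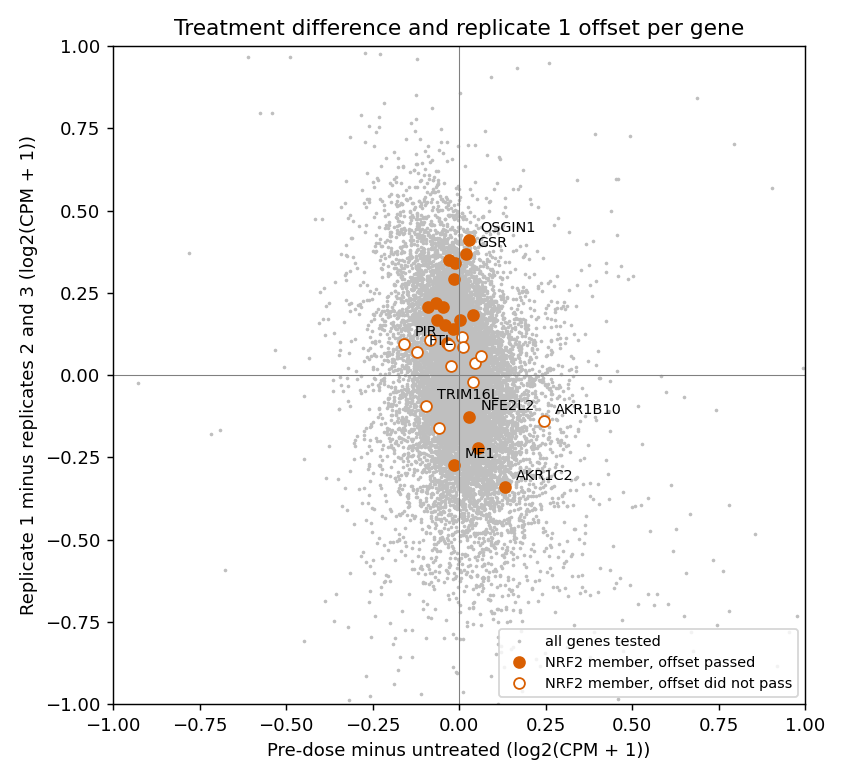
Treatment difference (x axis) against the replicate 1 offset (y axis) for all genes tested (grey, with 31 genes outside the axes) and the 31 members (orange), both on the log2(CPM + 1) scale. Filled points are the 18 members whose offset passed in limma. The members lie in a narrow band along x, from -0.16 to 0.25, and spread from -0.34 to 0.41 along y.

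Other genes of the pathway were taken from 6 lists of 109 genes in all, of which 97 were tested. In limma 0 of the 97 passed (background 0.0%), and 4 had an unadjusted p under 0.05 (background 2.06%). The groups did not overlap for 1 gene as higher (EP300) and 5 as lower (NFE2L3, IDH2, TFRC, AKR1B1 and TRIM16). Among all genes tested, 3.19% did not overlap and were lower, and 6.55% did not overlap in either direction. Of the 97, 4 in the authors' deposited table were past an adjusted p of 0.05, 1 higher (background 1.61%) and 3 lower (background 1.45%). In replicates 2 and 3 alone 8 passed in limma. There 4 were higher (GPX1, TXNIP, TIGAR and ABCC1), with 2.89% of all genes, and 4 lower (GGCT, IDH2, TFRC and TRIM16), with 3.47%. Over all 3 replicates the differences of the 97 ran from -0.25 (TRIM16) to 0.39 (TXNIP), with TIGAR at 0.34.

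Of 22 regulators of NRF2, 11 were higher on average and 11 lower, and 0 passed in limma or in the authors' deposited table. KEAP1 had 99.9, 72.1 and 76.4 CPM in untreated and 96.8, 79.1 and 88.4 CPM in pre-dose libraries, a difference of 0.098 (-0.21 to 0.41). In replicates 2 and 3 alone it was 0.17 (0.050 to 0.29, limma adjusted p = 0.0966). CUL3 had 82.8, 85.2 and 84.7 CPM in untreated and 84.5, 84.8 and 88.6 CPM in pre-dose libraries, and differed by 0.029 (-0.096 to 0.15). RBX1, the RING subunit of the same ligase, differed by -0.063 (-0.23 to 0.10), and BACH1 by -0.029 (-0.30 to 0.24), which was 0.027 in replicates 2 and 3 alone. In this list NFE2L3, a relative of NRF2, had the smallest unadjusted p, with 11.3, 12.3 and 13.8 CPM in untreated and 10.2, 10.5 and 10.7 CPM in pre-dose libraries. Its groups did not overlap and its difference was -0.23 (-0.44 to -0.019, limma adjusted p = 1.00).

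Of 32 glutathione and thioredoxin genes 14 were higher on average and 18 lower, of 12 NADPH genes 4 and 8, and of 11 heme and iron genes 6 and 5. Of 12 detoxification and efflux genes 4 were higher and 8 lower, and of 8 superoxide, peroxide and ferroptosis genes 4 and 4. GPX1, a glutathione peroxidase, was the 1 gene past the threshold as higher in the authors' deposited table (0.18, adjusted p = 0.0391). It had 240.0, 209.7 and 211 CPM in untreated and 235, 244 and 238 CPM in pre-dose libraries, so the groups overlapped through untreated replicate 1. In limma it passed as higher in replicates 2 and 3 alone (0.20, adjusted p = 0.00637) and not over all 3 replicates (0.12, adjusted p = 1.00).

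IDH2, TFRC and TRIM16 were past the threshold as lower in that table. IDH2, the mitochondrial NADP-dependent isocitrate dehydrogenase, had 194, 195 and 207 CPM in untreated and 187, 174 and 175 CPM in pre-dose libraries, a difference of -0.16 in limma (-0.29 to -0.022). TFRC, the transferrin receptor, which brings iron into cells, had 137, 150.4 and 145 CPM in untreated and 134, 122 and 122 CPM in pre-dose libraries, a difference of -0.19 in limma (-0.35 to -0.035). TRIM16 had 77.2, 94.9 and 99.3 CPM in untreated and 77.0, 74.8 and 74.7 CPM in pre-dose libraries, a difference of -0.25 in limma (-0.48 to -0.023). For all 3 genes the groups did not overlap, and none passed in limma over all 3 replicates (adjusted p = 1.00). All 3 passed as lower in replicates 2 and 3 alone, IDH2 by -0.20 (limma adjusted p = 0.00942), TFRC by -0.27 (limma adjusted p = 0.00200) and TRIM16 by -0.37 (limma adjusted p = 7.90e-04). TFRC and TRIM16 also passed with library quality weights (limma adjusted p = 0.0374 for each). That fit weighted the untreated and pre-dose replicate 1 libraries at 0.23 and 0.20, and the others at 1.26 to 2.86. It thus leaned on the same libraries as replicates 2 and 3 alone and is not a separate result. The replicate 1 pair was the smallest in each, at -0.059, -0.023 and -0.0034. In the contrast added after the values were seen, the replicate 1 pair was set against the mean of the other pairs. It differed in TRIM16 (0.37, interval 0.21 to 0.53, limma adjusted p = 0.0384), which shares stretches with TRIM16L. The contrast did not pass in TFRC (0.25, adjusted p = 0.113) or IDH2 (0.15, adjusted p = 0.390). TRIM16 was the 1 of 97 genes past the threshold, where 1.11% of all genes passed. An unadjusted p under 0.05 was reached by 17 of the 97, and by 12.3% of all genes.

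**Figure D4:**
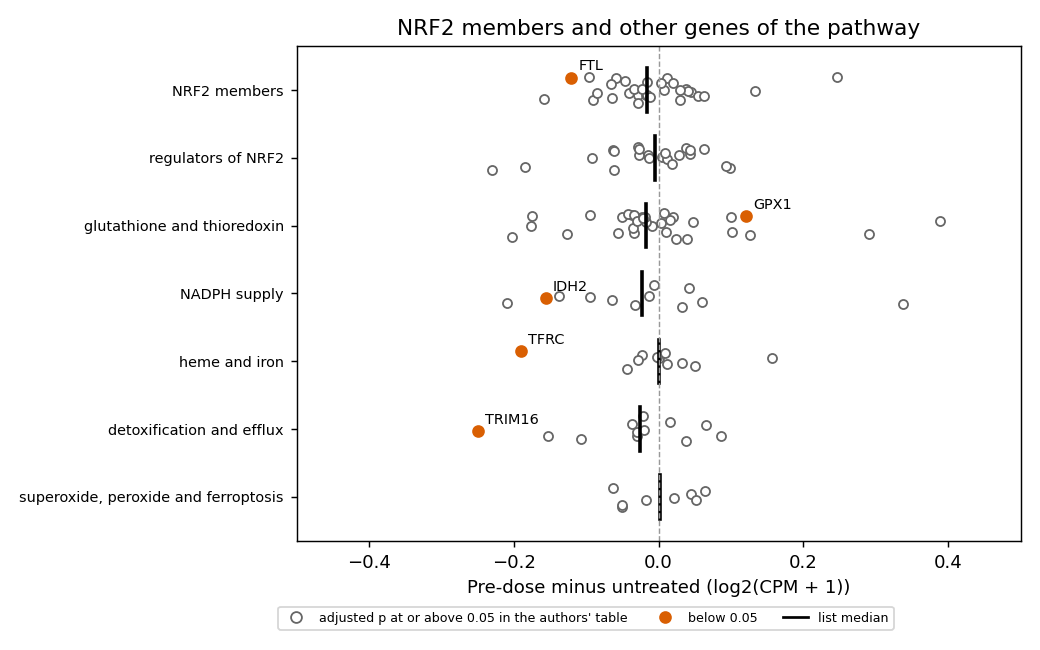
Difference between pre-dose and untreated libraries (x axis, log2(CPM + 1)) for the 31 members and for 6 lists of other pathway genes. Each point is a gene, black bars are list medians, and filled points are genes past an adjusted p of 0.05 in the authors' deposited table. All list medians lie between -0.026 and 0.0021, and 1 of the 5 filled points, GPX1, is above 0.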

How the data were processed

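The labels' protocols describe poly-A selected RNA read from both ends, 150 bases each. Tools listed in the submitters' processing notes are bcl2fastq, DRAGEN, edgeR and limma, with hg38 as build, and no version or role. How reads were counted, with which strand setting and which gene filter, is not given in the sources used here. Values deposited by the authors were log2 CPM of estimated counts with 0.5 read added, as the lowest values show. The authors also deposited their own log2 changes, p-values, scores (a moderated statistic and log odds) and a signed linear fold change, which was not used. The sign of the log2 changes was turned to pre-dose minus untreated. Across genes, the turned changes correlated at 0.69 with plain mean differences of the deposited log2 values. They are thus another measure than the differences given here, and their fit is not described in the sources used here. Of 13773 rows, 77 repeated an identifier and were dropped.

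Here limma 3.58.1 (R 4.3.3) was fitted with a trend on log2(CPM + 1), without a block, over the 13616 genes whose mean reached 1 CPM, with Benjamini-Hochberg adjustment. Adding 1 CPM understates changes of low genes. At the library totals, 3 counts were 0.0944 to 0.114 CPM, a limit for counting error only. Nothing in the labels says that replicates were separate cultures, and the spread behind each p-value may then be technical. Libraries with the same number were taken as pairs, and a fit with the replicate block was an alternative. No label states this pairing. The deviations of same-numbered libraries correlated at 0.66, 0.45 and 0.18 across genes. Untreated replicate 3 correlated with pre-dose replicate 2 at 0.51, and untreated replicate 2 with pre-dose replicate 3 at 0.28. The correlations thus set the replicate 1 pair apart, and do not decide how replicates 2 and 3 pair. The fits were tested on simulated data. Figures were drawn with matplotlib 3.10.9.

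The members and lists were chosen with earlier results of these data known, so their counts are descriptions. Library values are given for NFE2L2, NQO1, HMOX1, GCLM, GCLC, TXNRD1, SRXN1 and SLC7A11. They are also given for members that the authors' table called, whose groups did not overlap, or that had the 8 smallest unadjusted p among the members. Of the other pathway genes, KEAP1, CUL3, RBX1, BACH1 and those called in that table are named. NFE2L3, and the library values of FTH1, were added after the values were seen. EP300, AKR1B1, TXNIP, TIGAR, ABCC1 and GGCT are outside that rule and are named because of their values here. Alternatives were the pseudocount, filter, scaling, voom with and without library weights, the block, and libraries left out.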

Additional observations from a re-analysis of the deposited data

How the results depend on the processing

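The count of 0 members past the threshold held under the other pseudocount, the deposited log2 values, no filter, the median-of-ratios scaling, voom with and without library quality weights, the replicate block, and with each single library left out. In replicates 2 and 3 alone it was 2, FTL and TRIM16L, and 2 again with the replicate block added, a setting chosen after seeing the data. The count over all genes, 0, became 108 with library quality weights, 866 in replicates 2 and 3, and 1227 there with the block. For the other pathway genes it became 2, 8 and 13. With the replicate block over all 3 replicates each of these counts stayed at 0, and the block changed no call. The cause of these changes was not tested. The members' median difference, -0.015, was 0.0081 with library quality weights, and ran from -0.061 to 0.018 with each library left out. The lowest of these medians came without pre-dose replicate 1 and the highest without pre-dose replicate 2. No block was used there, and leaving out any single library gave replicate 1 unequal weight in the groups. How far this moved the median was not tested. The count of 18 members offset in replicate 1 ran from 15 to 18. Of 225 recomputed differences of named members, 11 in 6 genes turned sign, none of them called. GCLM was 0.015 with library quality weights. With each library left out NFE2L2 ran from -3.85e-04 to 0.084, HMOX1 from -0.0024 to 0.12, GCLM from -0.063 to 0.033, GCLC from -0.11 to 0.010, TXNRD1 from -0.019 to 0.10 and SRXN1 from -0.15 to 0.080. Depth limits AKR1B10 most, with 62 estimated reads in its lowest library.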
